A study of Mus musculus with 388 samples.

Results

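The complement genes C3, C4b, C2, Cfb, C1ra and Serping1 were followed by their symbols through 386 single bone marrow stromal cells, as 6 of the 25000 genes in the merged count table. The cells came from 2-month-old C57BL/6 mice of the genotype KitMerCreMer; R26tdTomato, in which a tamoxifen-activated Cre made from the Kit gene switches on a red tdTomato reporter. Tamoxifen was given before birth, at E12.5 and E14.5, so Tomato+ cells are those that recombined then or descend from such cells, and Tomato- cells are all others, including any that Cre missed. Both groups share this genotype, the treatment and the sort for PDGFRα+ cells without CD45, Ter119 and CD31; the source name calls them skeletal stem cells. The sample titles name 2 orders, a word whose meaning the labels do not give. In order 1 the Tomato+ title sets P1, P2 and P3 gave 94, 5 and 38 cells and the Tomato- set N2 gave 60. In order 2 the Tomato+ sets P1 and P2 gave 24 each, and the Tomato- sets N1 and N2 gave 71 and 70. No animal is named, so each group is 1 sample, cells are not replicates, and no test between the groups was possible.

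Complement is a cascade of secreted proteins that tags microbes and damaged cells. In the classical pathway the proteases C1r and C1s cleave C4 and C2, whose fragments form a C3 convertase; in the alternative pathway factor B joins cleaved C3 to form another, and C1 inhibitor blocks C1r and C1s. The liver makes most circulating complement, but fibroblasts and other stromal cells also transcribe many of these genes, several of which are known to respond to interferon, IL-6 and NF-κB signals.

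The total per kept cell had a median of 679644 counts and ran from 18031 to 3833473, with medians in order 1 of 774174 for Tomato+ and 500702 for Tomato-, and in order 2 of 653682 and 649235. All 16 markers of Lepr+ marrow stroma reached 20 CPM in both orders, where CPM are the counts of the summed cells scaled to a total of 1000000, and Lepr and Cxcl12 had at least 5 counts in 386 of 386 cells. The 5 P2 cells of order 1 stood apart with Lepr at 48.3 to 151.6 CPM, against a median of 4041 CPM in the 351 cells with fewer than 5 counts of both Ptprc and Pecam1. Ptprc, the gene for CD45, reached 5 counts in 12 cells, all of them Tomato- cells of order 2.

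C4b, Cfb and C2 lie together on mouse chromosome 17, all on the minus strand, within 169886 bases (GENCODE M21 on GRCm38). C4b spans 34728380 to 34743882, Cfb 34856374 to 34862518 and C2 34862604 to 34898265, so that 85 bases separate Cfb from C2. C3 lies farther along the same chromosome at 57203970 to 57228136, minus strand. C1ra stands on the plus strand of chromosome 6 at 124512405 to 124523443, next to its partner protease C1s1 at 124530345 to 124542359. Serping1 lies on the minus strand of chromosome 2 at 84765387 to 84775444. All 6 are protein-coding genes.

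RefSeq promoter windows on GRCm38.p6, from 250 bases before to 50 bases after the start site, matched 2 of the 6 genes, C3 and C1ra. These are shown as an example of a gene that was patchy among cells (C3) and of one that was broad (C1ra). Capitals mark matches, on either strand, to TTCNNNGAA (the STAT-type GAS motif), the interferon motif ISRE (GAAA repeated after 2 bases), a loose NF-κB motif (GGG and CC with 5 bases between) or TTGCNNAA (a C/EBP motif); no match of one motif overlaps that of another, and only the NF-κB matches overlap each other.
C1ra, chr6:124512371-124512670, plus strand: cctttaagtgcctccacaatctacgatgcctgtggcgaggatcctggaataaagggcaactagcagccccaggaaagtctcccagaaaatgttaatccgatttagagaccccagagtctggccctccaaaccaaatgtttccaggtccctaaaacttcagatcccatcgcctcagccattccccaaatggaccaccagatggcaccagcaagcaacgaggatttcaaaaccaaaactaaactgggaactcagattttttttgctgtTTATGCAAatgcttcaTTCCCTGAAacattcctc
C3, chr17:57228087-57228386, minus strand: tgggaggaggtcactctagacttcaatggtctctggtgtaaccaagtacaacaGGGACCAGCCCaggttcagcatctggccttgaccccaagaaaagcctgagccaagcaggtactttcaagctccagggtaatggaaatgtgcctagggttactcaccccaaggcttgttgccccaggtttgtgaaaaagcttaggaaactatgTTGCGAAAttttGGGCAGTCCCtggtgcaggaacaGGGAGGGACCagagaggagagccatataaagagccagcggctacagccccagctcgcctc
The C1ra window held a GAS match, TTCCCTGAA, and a C/EBP match on the opposite strand, TTATGCAA, both after the RefSeq start site. GENCODE starts C1ra earlier, at 124512405, so most of this window lies inside the gene as annotated there. The C3 window held the C/EBP match TTGCGAAA, 45 bases before the start site, and 4 NF-κB matches, of which 2 overlap. Of 32851 promoter windows of this length, 8.3% held a GAS match, 3.44% an ISRE match, 50.8% an NF-κB match and 10.8% a C/EBP match. Neither window held the ISRE letters. These are letter matches and not known binding sites.

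Serping1, the C1 inhibitor gene, was the most abundant of the 6 per length in every group and order. In order 1 the Tomato+ sum stood at 3258 and the Tomato- sum at 3994 CPM per kb of exon; in order 2 they stood at 6250 and 5517 CPM per kb. By summed counts its ranks among all genes were 10 and 7 in order 1, and 2 and 4 in order 2. C1ra came next in all 4 sums, at 362.4 to 505.2 CPM per kb. C3, whose protein is the central substrate of the cascade, was the lowest per length in 3 of the 4 sums, at 57.6 CPM per kb in Tomato+ cells of order 1 and 101.6 and 106.3 in order 2. In Tomato- cells of order 1, C2 at 80.2 CPM per kb stood below C3 at 83.7. The order of Cfb and C4b was not stable: Cfb stood above C4b in order 1, at 221.2 and 160.6 CPM per kb in Tomato+ cells and at 121.1 and 115.1 in Tomato- cells. It stood below C4b in order 2, at 241.1 and 429.1 CPM per kb in Tomato+ cells and at 201.2 and 392.8 in Tomato- cells.

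Among the classical pathway genes, C1ra encodes the mouse C1r protease that starts the cascade. In order 1 its Tomato+ sum was 1080 and its Tomato- sum 1165 CPM; in order 2 they were 1373 and 1506 CPM. The median cell carried 850.9 and 384.1 CPM in order 1 and 1395 and 1552 CPM in order 2, with a range over all cells of 6.6 to 6305 CPM. C1ra was therefore near even between the groups in its sums, while in order 1 the median Tomato+ cell stood higher. Values of C1ra that were not whole numbers, 14.1% of those above 0 in order 1 and 88.4% in order 2, became whole to within 0.015 when added to those of C1rb, its near-identical copy, in every such cell; the split between both copies is thus an estimate.

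C4b encodes complement C4, the substrate of C1s. Its sums were 914.3 CPM (exact Poisson 95% interval 908.7 to 920.0) in Tomato+ and 655.3 CPM (646.6 to 664.1) in Tomato- cells of order 1. In order 2 they were 2444 CPM (2426 to 2461) and 2237 CPM (2227 to 2246). These intervals cover counting error only, since reads were counted after amplification without molecular identifiers. By title set, C4b ran from 655.3 to 984.0 CPM in the sets N2, P1 and P3 of order 1 and from 2066 to 2559 CPM in the 4 sets of order 2. The set P2 of order 1, with 5 cells, stood at 17.9 CPM. Counts of C4a, the near-identical neighbour of C4b, came to 28 in all cells.

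C2 encodes the protease that joins C4b protein in the classical C3 convertase. The Tomato+ sum exceeded the Tomato- sum with 406.9 over 310.7 CPM in order 1 and 624.8 over 494.0 CPM in order 2. The median cell of order 1 carried 102.9 CPM when Tomato+ and 17.8 CPM when Tomato-, and that of order 2 carried 383.2 and 315.2 CPM. C2 was higher in the Tomato+ sum of both orders, but the 3 Tomato+ sets of order 1 did not share that level: P1 stood at 467.4, P3 at 241.2 and P2 at 5.05 CPM, with cell medians of 302.1, 6.43 and 5.61 CPM. About 1 in 5 values of C2 and of Cfb in order 1 (23.3% and 22.8% of values above 0) and 12.6% and 12.1% in order 2 were not whole; adding both genes did not make them whole in any cell.

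In the alternative pathway, Cfb encodes factor B. Tomato+ cells summed to 624.8 CPM in order 1 and 681.1 CPM in order 2, and Tomato- cells to 342.1 and 568.4 CPM. The median cell carried 49.7 and 19.3 CPM in order 1 and 504.8 and 299.0 CPM in order 2. Of the Tomato+ sets of order 1 only P1, with a median of 161.5 CPM, stood above that Tomato- median, while P3 had 8.98 and P2 8.27 CPM. By sum, P1 at 663.8 and P3 at 548.4 CPM both stood above the Tomato- 342.1 CPM, and P2 stood at 11 CPM. A single cell gave 32.6% of the Cfb counts of P3. Within order 2 the sets numbered 1 stood above those numbered 2, at 858.2 (P1) and 713.1 CPM (N1) against 548.0 (P2) and 453.1 CPM (N2). Tomato+ therefore stood above Tomato- within each number, while P2 stood below N1.

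C3 sums were 296.2 CPM (interval 293.1 to 299.5) in Tomato+ and 430.5 CPM (423.4 to 437.6) in Tomato- cells of order 1. In order 2 they were 522.4 CPM (514.4 to 530.5) and 546.6 CPM (541.8 to 551.3). The median cell of order 1 carried only 7.33 CPM when Tomato+ and 11.2 CPM when Tomato-, against 355.2 and 296.4 CPM in order 2. A single cell of the set P2, at 13647 CPM, gave 30.1% of all C3 counts of the Tomato+ cells of order 1. That cell had C4b at 5.49, C2 and Cfb at 0, C1ra at 12.4, Serping1 at 7574 and Lepr at 72.8 CPM.

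Serping1 summed to 7575 CPM in the Tomato+ and 9286 CPM in the Tomato- cells of order 1, and to 14532 and 12827 CPM in those of order 2. All 386 cells had at least 5 counts of it, and cells ran from 40.9 to 55720 CPM. The group that was higher changed with the order, and by title set the Tomato- set N2 of order 1, at 9286 CPM, stood above its Tomato+ sets at 7362 to 8952 CPM. In order 2, P1 at 16343 CPM stood above N1 at 14114, and P2 at 13171 above N2 at 11801.

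**Figure D1:**
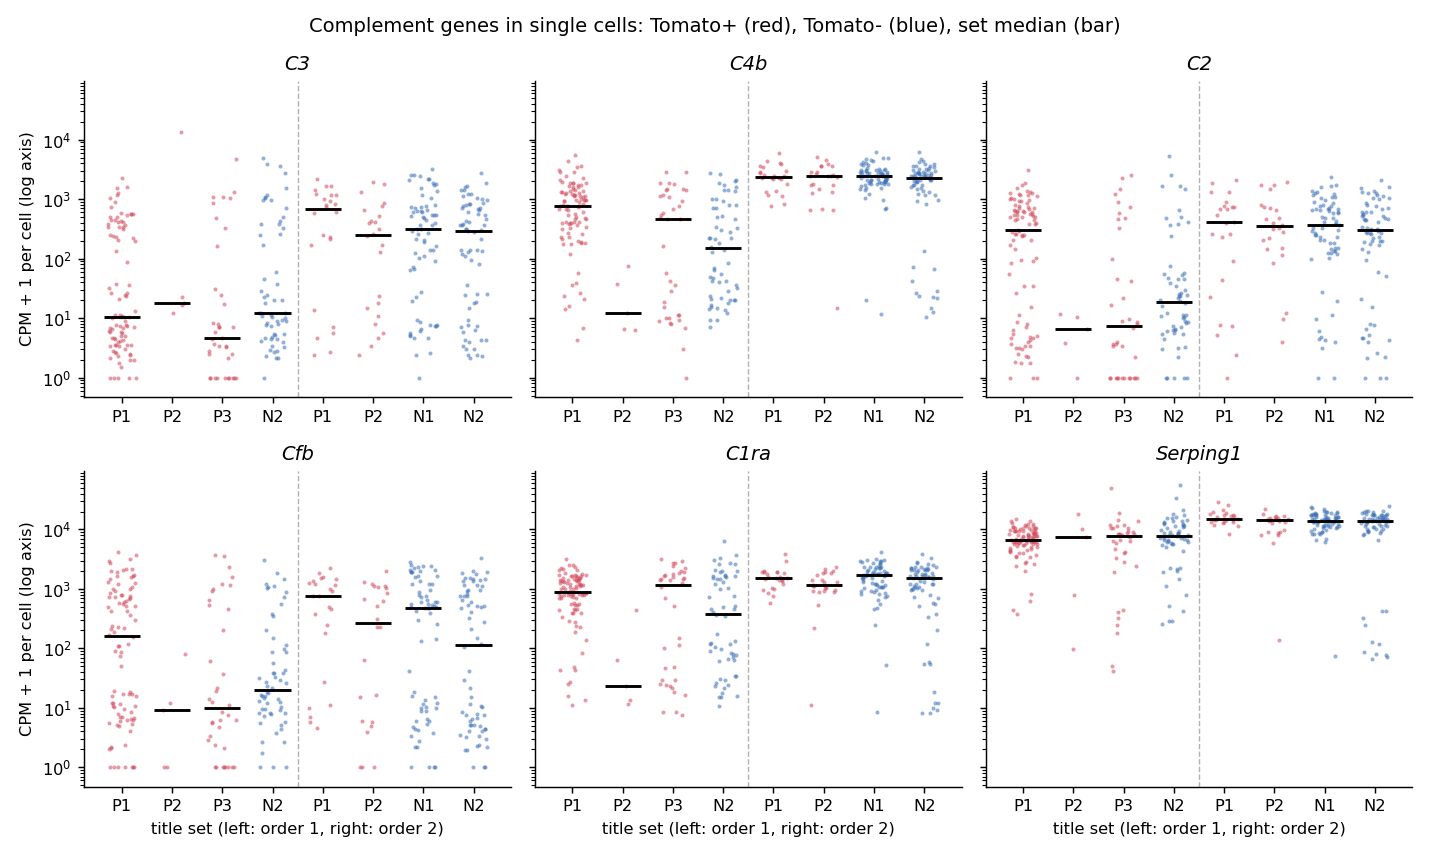
Level of each complement gene in every kept cell, as CPM + 1 on a log axis, by title set within order 1 (left) and order 2 (right); each point is a cell, red for Tomato+ and blue for Tomato-, and bars mark set medians. C3, C2 and Cfb range from near 0 to 100 CPM or more within most sets, with many cells between 10 and 100 CPM for C2 and Cfb in N2 of order 1 (40% and 41.7%), while Serping1 is high in nearly all cells, and C4b medians are higher in order 2.

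Between Tomato+ and Tomato- cells, none of the 6 genes passed the size rule, which asked for at least 20 CPM in the higher group and over 1.5-fold in the same direction in both orders. Among all 5865 genes at that level, 2.97% were higher and 4.09% lower in Tomato+ cells (7.06% in either direction), so a count of 0 among 6 genes is near that background. The median log2 ratio, Tomato+ over Tomato- and averaged over the orders, was 0.12 for the 6 genes and 0.01 for all genes at the floor. All ratios are on the log2(CPM + 1) scale.

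Cfb had the largest ratio, with log2 values of 0.87 in order 1 and 0.26 in order 2 (1.82-fold and 1.2-fold). C2 gave 0.39 and 0.34, and C4b 0.48 and 0.13. These 3 genes were higher in Tomato+ cells of both orders and remained so under both other scalings. However, C4b turned to -0.55 and C2 came to 0.03 when cells were summed over both orders, and C2 turned to -0.07 without the set P1 of order 1. Tomato+ cells came mainly from order 1 and Tomato- cells mainly from order 2, so that sum mixes group with order. C3 gave -0.54 and -0.07, C1ra -0.11 and -0.13, and Serping1 -0.29 and 0.18. A fold of 1.5 either way was reached in order 1 by 50.6% of genes and in order 2 by 22.1%, which puts the value of Cfb in order 1 among the majority of genes there.

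The groups could also be compared inside smaller units that the column names and titles give; whether sets of the same number were handled together is not stated. In order 1, 7 of the 12 library codes in the column names held both groups, with 83 Tomato+ and 60 Tomato- cells, and in order 2 the sets with the same number were compared. Cfb stood at 684.3 CPM in Tomato+ and 342.1 CPM in Tomato- cells of the shared codes and gave log2 ratios of 0.27 and 0.27 in the 2 numbered pairs of sets. C2 gave log2 ratios of 0.60 in the shared codes and 0.22 and 0.44 in the pairs, and C4b gave 0.50, 0.06 and 0.19. The direction of these 3 genes was the same in each comparison, though the size was 1.5-fold or more only in the shared codes, for Cfb and C2. The shared codes hold cells already used in the order 1 ratio, with the same 60 Tomato- cells. Their Tomato+ levels of C2 and Cfb, 471.8 and 684.3 CPM, were close to those of the set P1, 467.4 and 663.8 CPM. C3 gave -1.21, 0.08 and -0.20, C1ra -0.22, -0.20 and -0.06, and Serping1 -0.36, 0.21 and 0.16, so C3 and Serping1 had no shared direction.

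Leaving out a title set moved some of these values. The mean ratio of C3, -0.30, became 0.25 without the set P1 of order 1, and -0.55 without the set P2 of order 1, whose 5 cells include the C3-rich cell. Cfb passed the size rule without the set N1 or without the set P2 of order 2, with a mean log2 ratio of 0.73 in either case. Without the 12 cells with Ptprc counts and the 28 with Pecam1 counts, C3 came to -0.06 and Cfb to 0.48.

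Other cell markers moved with the groups. The 14 myeloid markers took 1.53% of the counts of Tomato- cells of order 2, 0.0121% of those of Tomato+ cells of order 2, and 0.00566% (Tomato+) and 0.0099% (Tomato-) in order 1; Ptprc was at 0 in both groups of order 1. The 12 endothelial markers summed to 417.9 and 470.6 CPM in the Tomato+ cells of orders 1 and 2. In the Tomato- cells they summed to 109.3 and 136.1 CPM. By the size rule 4 of 12 were higher in Tomato+ cells, and most of these rested on few cells. Over all cells, Kdr had 5 counts in 6 cells, Cldn5 in 5 and Emcn in 19, while Eng had them in 37.3% of cells. The top cell of each gene gave 42.8% of the Kdr counts and 65% of the Cldn5 counts. The 12 markers of Sca1+ fibroblast-like stroma were lower in the Tomato+ sum, at 2919 CPM where Tomato- had 4234 in order 1, and at 1183 where it had 2208 in order 2. Past the size rule were 3 of 12, with 5 counts of Cd34 in 10 cells, Ly6a in 33 and Gsn in 236. The 16 Lepr+ stroma markers were higher in the Tomato+ sum, at 66172 CPM where Tomato- had 44817 in order 1, and at 80560 where it had 72454 in order 2. However, 0 of 16 passed the size rule and their median log2 ratio was 0.05. Cxcl12 alone gave 42135 and 22490 CPM in order 1, while Lepr was slightly lower in Tomato+ cells, with log2 ratios of -0.22 and -0.08. Beyond the values without Ptprc and Pecam1 cells, the part of these cells in the ratios was not tested, and fewer expressing cells and less RNA per cell cannot be told apart in a sum.

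**Figure D2:**
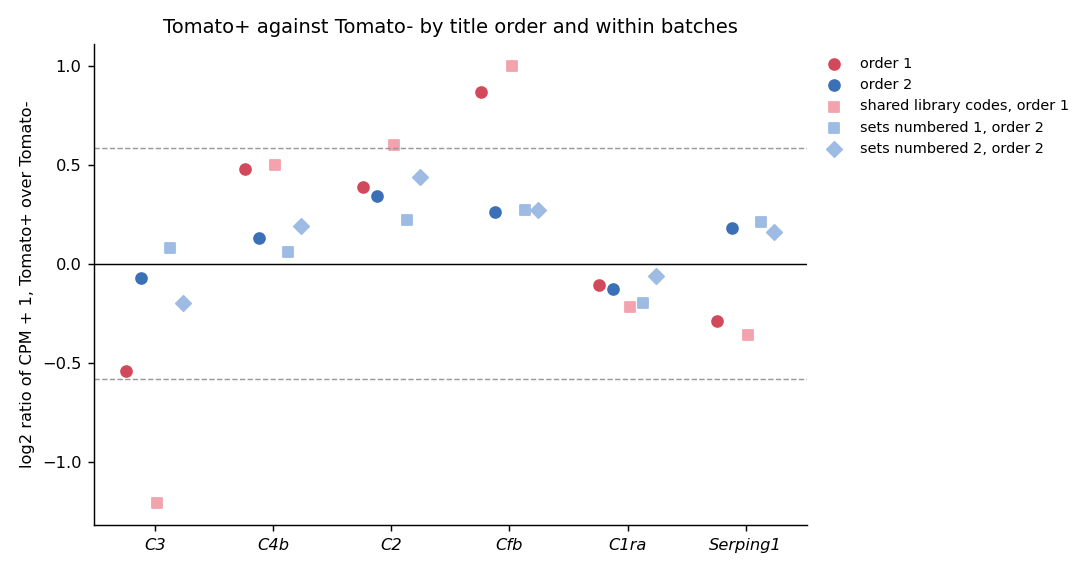
Log2 ratio of CPM + 1, Tomato+ over Tomato-, for each gene in both orders (circles), in the library codes of order 1 that hold both groups (light squares) and in the equally numbered sets of order 2 (light blue); dashed lines mark 1.5-fold. C4b, C2 and Cfb lie above 0 in every comparison shown, C1ra below 0 in every one, and C3 and Serping1 on both sides.

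The title orders differed more than the Tomato groups. C4b was 2.67-fold higher in order 2 among Tomato+ cells and 3.41-fold higher among Tomato- cells, and C2 1.54-fold and 1.59-fold higher. These 2 of the 6 genes passed the size rule in that direction, beside 771 of 6292 genes (12.3%) higher and 1005 lower in order 2 (28.2% in either direction). None of the 6 was lower. The median log2 ratio, order 2 over order 1, was 0.61 for the 6 genes and -0.06 for all genes at the floor.

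C4b was called under every alternative tried, with mean log2 ratios from 1.42 to 1.84. C2 lost its call with the mean of per-cell values, with median-of-ratios scaling, without Ptprc and Pecam1 cells, under a 2-fold rule, and without the set P3 of order 1 or N1 of order 2, while its mean ratio ran from 0.56 to 1.08. Serping1 gave 0.94 in Tomato+ and 0.47 in Tomato- cells, C3 0.82 and 0.34, Cfb 0.12 and 0.73, and C1ra 0.35 and 0.37, all positive. Serping1 also passed in 4 settings: without Ptprc and Pecam1 cells (0.79), without the 5 P2 cells of order 1 and the Ptprc cells together, which was chosen after seeing the data (0.78), without the set N2 of order 1 (0.94) and without the set N2 of order 2 (0.77). C3 passed without N2 of order 1 (0.82), where Tomato+ cells alone are compared. The orders differ in their column names, in the genes that share reads (as given above for C1ra) and in their cells, which cannot be told apart.

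Single cells showed 2 kinds of pattern, clearest in order 2. C3, C2 and Cfb were patchy, with cells under 10 CPM and cells at 100 CPM or more in both groups of both orders. Over both groups of order 2, 66.1% of cells had at least 100 CPM of C3 and 10.6% lay between 10 and 100 CPM; for C2 the shares were 76.7% and 7.41%, and for Cfb 58.7% and 8.99%. In order 1, 31.5% of cells had at least 100 CPM of C3, 41.1% of C2 and 39.6% of Cfb. Between 10 and 100 CPM lay 13.9% of Tomato+ and 21.7% of Tomato- cells of that order for C3, 10.9% and 40% for C2, and 16.8% and 41.7% for Cfb, so that cells between were few among Tomato+ but not among Tomato- cells. C1ra, C4b and Serping1 are called broad here, with at least 100 CPM in 93.1%, 92.6% and 96.8% of cells of order 2. In order 1 the shares were 75.6%, 69.5% and 98.5%. The split was less sharp in Tomato- cells of order 1, where 35% of cells lay between 10 and 100 CPM for C1ra and 41.7% for C4b. The level of 100 CPM was chosen after seeing the values.

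Within order 1 the share of cells at 100 CPM or more differed between the groups for 4 of the genes. It was 50.4% of Tomato+ and 20% of Tomato- cells for C2, 46% and 25% for Cfb, 76.6% and 53.3% for C4b, and 81% and 63.3% for C1ra. For C3 the shares were alike, at 31.4% and 31.7%. The difference lay mainly in the set P1. Against the Tomato- shares just given, P1 reached 62.8% for C2, 54.3% for Cfb, 89.4% for C4b and 90.4% for C1ra, while P3 stood at 26.3%, 31.6%, 55.3% and 65.8%, and the 5 P2 cells at 0%, 0%, 0% and 20%. In order 2 the shares lay closer together: 75% and 77.3% for C2, 66.7% and 56% for Cfb, 97.9% and 90.8% for C4b, 97.9% and 91.5% for C1ra, and 68.8% and 65.2% for C3. The difference of order 1 was thus not seen at its size in order 2, and whether it differs between the orders was not tested. The Tomato- cells of order 1 were also the shallowest group.

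A count of 5 or more was less selective than 100 CPM. It was reached by C3 in 53.3% of Tomato+ cells of order 1 (exact Clopper-Pearson 95% interval 44.6 to 61.9) and 43.3% of Tomato- cells (30.6 to 56.8), and in 79.2% (65 to 89.5) and 80.9% (73.4 to 87) of order 2. After each cell was thinned to 150000 counts, which left out 4 Tomato+ and 7 Tomato- cells of order 1 and 6 Tomato- cells of order 2, the shares were 34.6% and 39.6% in order 1 and 70.8% and 71.9% in order 2. Thinned C2 was at 57.1% (48.3 to 65.7) and 37.7% (24.8 to 52.1) in order 1 and 81.2% and 80.7% in order 2. Thinned Cfb was at 50.4% (41.6 to 59.2) and 34% (21.5 to 48.3) in order 1 and 68.8% and 57.8% in order 2. In order 1 these gaps also lay in P1, at 68.1% for thinned C2 and 58.5% for Cfb, while P3 stood at 35.3% and 32.4% and P2 at 0% and 20%, all below the Tomato- shares. The intervals of these shares treat cells as independent draws. They do not cover the spread between sets or animals and give no comparison of the groups.

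The 12 cells with Ptprc counts had Lepr at a median of 39.4 CPM, with a range from 22.8 to 7283 CPM. All 12 had at least 5 counts of Serping1, C4b and C1ra, at medians of 99.9, 26.5 and 14.3 CPM, against 14213, 2421 and 1633 CPM in the 120 Tomato- cells of order 2 with neither Ptprc nor Pecam1. The highest values among the 12 were 14098 CPM for Serping1, 1493 for C4b and 1791 for C1ra. Whether the low counts are expression or stray reads was not tested. C2 and Cfb had medians of 4.2 and 5.47 CPM in the 12 cells, against 399.9 and 480.6 CPM. C3 differed: its median was 557.2 CPM in the Ptprc cells, with 10 of 12 at 5 counts, and 300.1 CPM in the 120 others. The 12 cells held 6.61% of all C3 counts and at most 0.852% of those of any other of the 6 genes.

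The 5 P2 cells of order 1 were also low in most of these genes. C4b lay at 5.28 to 73 CPM, C2 at 0 to 10.6, Cfb at 0 to 78.6 and C1ra at 10.6 to 446.7 CPM. Serping1 ran from 95.1 to 18430 CPM, so that 3 of the 5 cells were at 7574 CPM or more. C3 lay at 11.2 to 22.1 CPM in 4 of them and at 13647 CPM in the other.

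Few cells carried only a few of the genes in order 2, and more did in order 1. A gene was counted as carried when it exceeded 1% of its highest count in the same library code (order 1) or in the sets of the same number (order 2). All 6 were carried by 16.1% of Tomato+ and 5% of Tomato- cells of order 1 and by 43.8% and 37.6% in order 2. In order 1, 2.19% of Tomato+ cells carried none and 8.03% carried 1, and for Tomato- cells the shares were 6.67% and 26.7%. In order 2 the shares were 2.08% and 0% for Tomato+ cells and 3.55% and 4.26% for Tomato- cells. This rule used counts not scaled for depth, and the units that set its threshold differed in kind between the orders. At 5 counts or more, 0.73% of Tomato+ and 0% of Tomato- cells of order 1 carried 1 gene, and 5.11% and 0% carried 2. In thinned cells the shares were 5.26% and 5.66% with 1 gene, and 9.02% and 15.1% with 2. The order 1 gap between the groups in cells with 1 gene thus depended on the rule. All 6 had 5 counts in 25.9% of cells of order 1 and 50.3% of order 2. Of the patchy genes C3, C2 and Cfb, all 3 had 5 counts in 26.4% of cells of order 1 and 50.3% of order 2, and none in 13.2% and 2.65%.

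**Figure D3:**
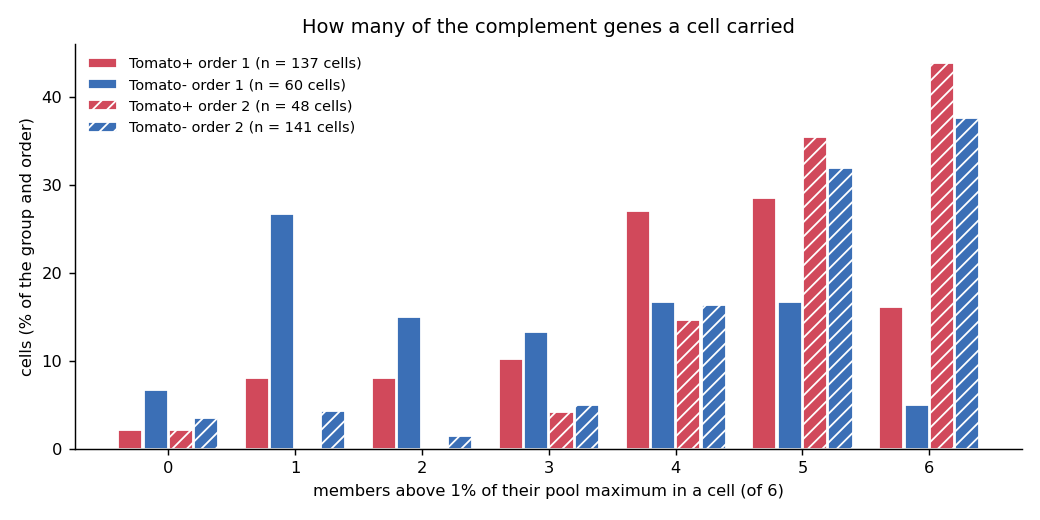
Share of cells, in percent of each group and order, by how many of the 6 genes exceeded 1% of their highest count in the same library code (order 1) or in sets of the same number (order 2); red bars are Tomato+, blue Tomato-, and hatched bars order 2. The share with all 6 is 43.8% and 37.6% in order 2 and 16.1% and 5% in order 1.

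Levels of the 6 genes went together only weakly from cell to cell. The median Spearman rho over the 15 pairs was 0.20 in order 1 and 0.21 in order 2, against 0.08 and 0.02 over all pairs of 3188 genes. In order 1 the highest pairs were C4b with C1ra (0.47) and C4b with Cfb (0.34), and in order 2 C1ra with Serping1 (0.50) and C4b with Serping1 (0.39). C4b with C1ra gave 0.34 in order 2, and C1ra with Serping1 0.31 in order 1. Without the cells with Ptprc or Pecam1 counts, the order 2 values were 0.36 for C1ra with Serping1, 0.26 for C4b with Serping1, 0.19 for C4b with C1ra and 0.01 for Cfb with C1ra (0.15 with all cells). C3 with C2 gave 0.05 and 0.07. C2 with Cfb, neighbours that are 85 bases apart, gave 0.17 and 0.20. These are descriptions across cells that share libraries and depth; total counts gave rho of -0.03 to 0.37 with the 6 genes in order 1 and -0.11 to 0.06 in order 2.

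**Figure D4:**
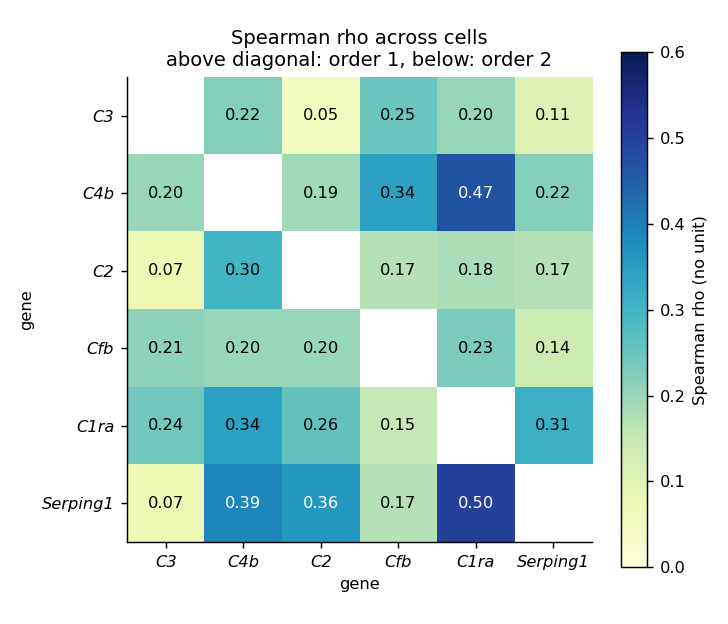
Spearman rho of log2(CPM + 1) across cells for each pair of complement genes, order 1 above the diagonal and order 2 below it. Darker squares are higher; the darkest is C4b with C1ra in order 1 (0.47) and C1ra with Serping1 in order 2 (0.50), and C3 with C2 is pale in both, at 0.05 and 0.07.

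For each gene the 3 most alike among the genes at 20 CPM in all sums were named by mean rho over both orders. C4b was most like Gpx3 (0.49), an extracellular glutathione peroxidase, and the MHC class I genes H2-D1 (0.47) and H2-K1 (0.47). C1ra was most like Lgals3bp (0.48), a secreted galectin-binding glycoprotein, H2-D1 (0.45) and C1s1 (0.42), its partner protease. Serping1 was most like Gpx3 (0.45), H2-D1 (0.45) and the kininogen gene Kng2 (0.41). C4b, C1ra and Serping1 thus each had H2-D1 among their neighbours. Gpx3 was not particular to the broad genes, since it was also nearest to the patchy Cfb (0.31).

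The patchy genes had weaker neighbours. C2 was most like Serpina3n (0.39), an acute-phase protease inhibitor, Cxcl14 (0.34), a chemokine, and Col1a2 (0.33), a collagen chain. Cfb was most like Gpx3 (0.31), Il1rn (0.30), the IL-1 receptor antagonist, and Htra1 (0.28), a secreted protease. C3 was most like Serpina3n (0.26), Cybb (0.24), a subunit of the phagocyte oxidase, and Cfb (0.23). The median mean rho over all genes compared was 0.03 to 0.07 for the 6 genes.

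The rest of the cascade was measured through 7 lists by role, with 59 genes in the table. Of these, 47 had a count, 24 reached 20 CPM in at least 1 of the 4 sums, and 12 were at 0 in all kept cells. Only 16 were at the floor of the size rule in both orders and could be called. Of those 16, 0 were higher and 0 lower in Tomato+ cells, beside 7.06% of all 5865 genes called in either direction. A count of 0 among 16 genes is near that background. In the initiating complex, C1s1, which cleaves C4 and C2, stood at 837.0 and 883.9 CPM in the Tomato+ sums of orders 1 and 2 and at 750.7 and 773.9 CPM in the Tomato- sums. The C1q chain genes C1qa, C1qb and C1qc, whose product binds the target, were at most at 1.51 CPM in any sum. The copies C1rb (6.05 to 31.8 CPM) and C1s2 (0.0179 to 31.2 CPM) were low, and both were higher in order 2.

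In the lectin pathway the scavenger receptor collectin Colec12 stood at 718.3 to 1052 CPM, while the mannose-binding lectin Mbl1 reached at most 20.7 CPM. Mbl2, Colec10 and the protease Masp1 were at 0, and Masp2 reached at most 1.67 CPM. The ficolin gene Fcnb had 129.8 CPM in Tomato- cells of order 2, 0.611 CPM in the Tomato+ cells of that order and 0 in order 1, and came from 8 cells with 5 counts. The myeloid integrin genes Itgam and Itgb2, which form complement receptor 3, followed it, at 47.6 and 81 CPM in Tomato- cells of order 2, 0.45 and 0.225 CPM in Tomato+ cells of order 2 and 0 in order 1. These 3 genes had the myeloid markers' distribution given above.

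In the alternative pathway, factor D (Cfd) and properdin (Cfp), which cleave factor B and stabilise the convertase, had 44 and 808 counts, beside 154873 of Cfb and 114197 of C3. Of the terminal pathway only C6 reached 20 CPM, at 72.3 (Tomato+) and 48.3 (Tomato-) CPM per kb in order 1 and 50 and 32.1 CPM per kb in order 2. Its log2 ratios of 0.58 and 0.64 fell just short of the size rule in order 1. Hc, which encodes C5, had 8 counts, C7 9, C9 40 and C8g 524, and C8a and C8b had 0.

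Some soluble regulators were abundant. Clusterin (Clu), an inhibitor of the terminal complex, stood at 2058 to 2332 CPM. Per length, Serping1 (3258 to 6250 CPM per kb) was above Clu (598.8 to 678.6). The factor I gene Cfi, whose protease inactivates cleaved C3 and C4, was at 0 in all 386 cells. Vtn reached at most 11.3 CPM, and C4bp came almost wholly from 1 cell.

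Among membrane regulators, Cr1l, the mouse gene for Crry, stood at 13 (Tomato+) and 24.8 (Tomato-) CPM per kb in order 1 and 16.3 and 13.9 CPM per kb in order 2. Csmd1 stood at 81.9 to 127.5 CPM. Cd55, which speeds convertase decay, had 108.1 CPM in Tomato- cells of order 1 and 11.5 to 28.3 CPM in the other sums. Cd59a reached 45.3 CPM (25 CPM per kb) in Tomato- cells of order 1, with 74.1% of its counts in 1 cell. Among receptors, C3ar1 had 320 counts in all and C5ar1 1525, C5ar2 stood at 3.19 to 21.8 CPM, and Cd93 and C1qbp, both first described as C1q binding proteins, stood at 21.6 to 69.6 and 16.8 to 53.1 CPM.

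**Figure D5:**
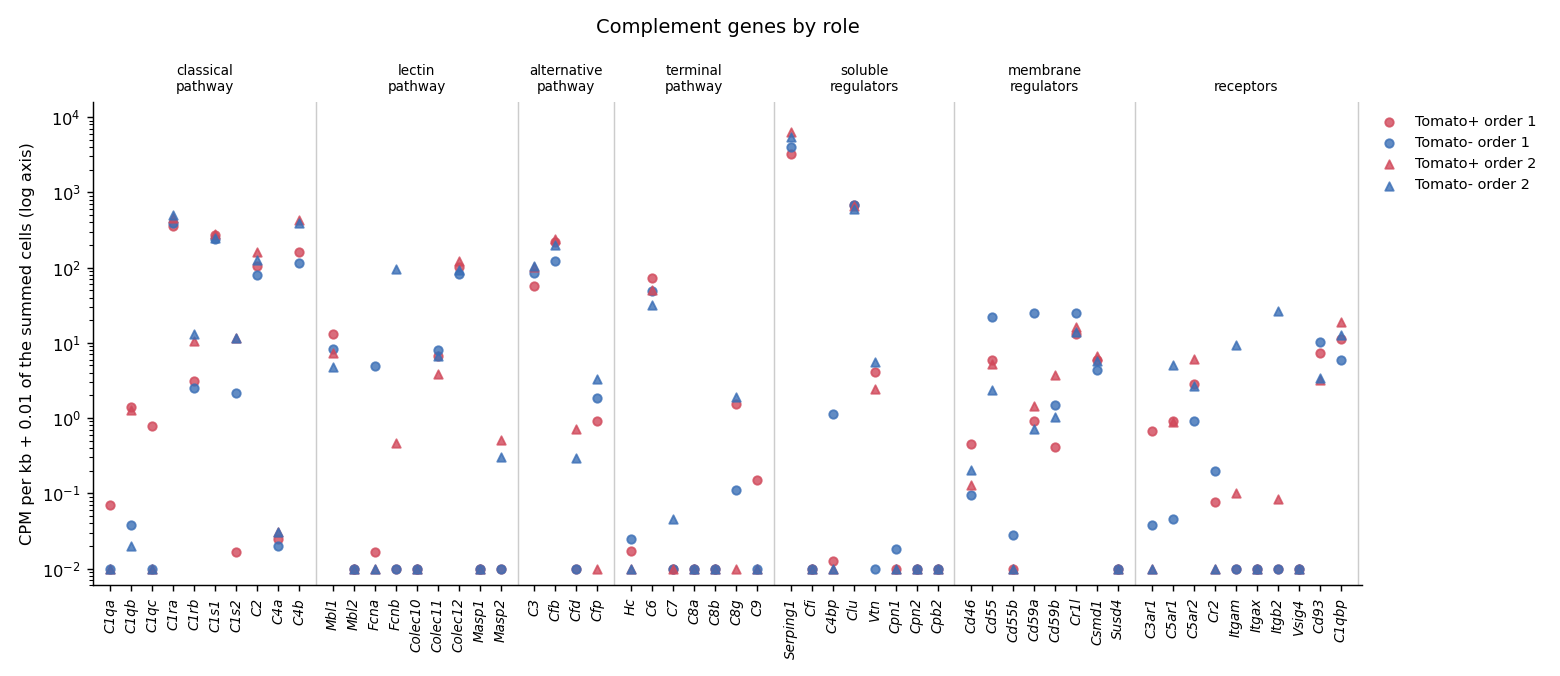
Level of complement genes in the 4 sums, as CPM per kb of exon + 0.01 on a log axis, grouped by role; red is Tomato+, blue Tomato-, circles order 1 and triangles order 2. Serping1 is highest. The C1q genes, the terminal genes other than C6 and most lectin pathway genes lie near the bottom, and Fcnb, Itgam and Itgb2 are high in Tomato- cells of order 2 alone.

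Genes of the signals known to drive complement transcription were also compared. Of 20 such genes, 18 were at the floor in both orders. Past the size rule in either direction were 0, beside 7.06% of all genes at the floor. Among the genes higher in Tomato+ cells of both orders were Socs3, a feedback inhibitor of the IL-6 pathway, with log2 ratios of 1.16 and 0.53, and Nfkbiz, an NF-κB cofactor, with 409.0 CPM in Tomato+ over 165.7 CPM in Tomato- cells of order 1 and 439.2 over 374.4 CPM in order 2. Across cells, C4b gave rho of 0.34 and 0.25 in orders 1 and 2 with the IL-1 receptor gene Il1r1, 0.42 and 0.12 with Stat3 and 0.33 and 0.20 with Nfkbia, and C1ra gave 0.23 and 0.31 with Il1r1. C3 gave 0.14 or less with each of the 20 genes in order 2.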

How the data were processed

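The deposited table holds expected counts per gene for 388 single cells, per the file headers and values. StringTie 1.3.3b, HISAT and HTSeq 0.6.0 appear with the build GRCm38 in the submitters' processing notes, which state no role for any of them. Per the labels' protocols, whole transcripts were reverse transcribed and amplified before library preparation, with no molecular identifiers mentioned, so amplification can inflate single cells.

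Expected counts deposited by the authors were rounded. Columns were matched to group, order and set by name; 0 were left unused and 0 were identical. Cells needed 1000 genes and 10000 counts, which left out 2. Counts were summed by group and order (31086604 to 111446734 counts) and scaled to CPM. Log2 ratios used a pseudocount of 1, within each order, then averaged. Python 3.11.15 and SciPy 1.17.1 gave intervals; edgeR 4.0.16 gave TMM factors only. Exon lengths came from GENCODE M21. The ratio calculation was tested on simulated data. No doublet caller was run.

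The 6 genes, the lists and the size rule were chosen with earlier results of these data known. Named were these 6, pathway genes at 20 CPM in any sum with others from each list, and 3 like genes per member among those with a count in 50% of cells, predicted and mitochondrial genes left out; the inducer genes named were chosen after their values were seen. Alternatives covered scaling, pseudocount, floor, fold, rounding, cell filters, library codes and left-out sets. Results for 2 of the listed genes are not reported here.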

Additional observations from a re-analysis of the deposited data

Results flagged for a closer look

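Serping1 stood lower in Tomato+ than in Tomato- cells of order 1, with a log2 ratio of -0.29, and higher in order 2, with 0.18. It is given here because the orders point in opposite directions; the difference between the orders was not tested.

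The 2 Tomato+ cells of order 1 left out as shallow, with 7927 and 4014 counts, also held complement reads. C2 was at 2145 CPM in the former, from 17 counts, and C4b at 3986 CPM in the latter, from 16 counts. Both lie above the summed Tomato- level of order 1, 310.7 CPM for C2 and 655.3 CPM for C4b, and rest on few reads.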

How the results depend on the processing

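No paired analysis was possible because each group is 1 sample and the ratios come from no test. The median ratio of the 6 genes between Tomato+ and Tomato- cells, 0.12, was 0.19 with the mean of per-cell CPM, 0.07 with median-of-ratios and 0.10 with TMM scaling, 0.10 without Ptprc and Pecam1 cells, 0.14 with each gene's highest cell left out, 0.05 without the set P2 of order 1 and the Ptprc cells (chosen after seeing the data), and 0.06 to 0.18 with a set left out. It turned to -0.35 when cells were summed over both orders. The count of these genes higher in Tomato+ stayed at 0 except for Cfb (0 to 1 with a set left out), and the count lower stayed at 0 in all 24 alternatives.

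The background moved more. The percent of genes higher and lower in Tomato+ cells, 2.97 and 4.09, was 1.53 and 2.51 with a pseudocount of 10, 15.5 and 16.9 when orders were summed, 0.927 and 1.36 within library codes or equally numbered sets, 0.512 and 1.21 at 2-fold, and 2.93 to 11 and 3.73 to 15.7 with a set left out; 5.15 were higher at a floor of 5 CPM. Leaving out the only Tomato- set of order 1 leaves order 2 alone, where the rule asks for 1 order in place of 2.

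Between the orders, a comparison whose alternatives were all chosen after seeing the data, the median ratio of 0.61 was 0.69 with the mean of per-cell CPM, 0.63 with TMM scaling, 0.69 without Ptprc and Pecam1 cells, 0.75 without top cells, 0.74 without the set P2 of order 1 and the Ptprc cells, and 0.53 to 0.72 with a set left out. Of these genes, 2 were higher in order 2, with 1 under per-cell CPM, median-of-ratios scaling or the 2-fold rule, 3 without P2 of order 1 and the Ptprc cells, and 1 to 4 with a set left out. The percent of genes higher and lower in order 2 was 6.96 and 7.1 with no floor, 5.63 and 7.5 at 2-fold, and 11.9 to 21.3 and 13.2 to 29.8 with a set left out. The cause of these changes was not tested. The median pair correlations moved by less than the spread over sets in all 3 alternatives. Ptprc cells also hold counts of the broad genes, which limits what a share of cells can show.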
